A study of Homo sapiens with 9 samples.

Results

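Gene expression after CD40L was set directly against gene expression after LPS in BL2 cells, to show what sets the responses to the 2 stimuli apart. The members of the comparison are the 3 arrays labelled as treated with rhCD40L and the 3 labelled as treated with LPS, 6 of the 9 arrays analysed here, and all 54613 probe sets of the array other than the AFFX controls. BL2 is a single established human Burkitt lymphoma line, so that it stands for 1 transformed clone of germinal centre origin and not for normal B cells. The CD40L cells received 200 ng/ml of recombinant human CD40L for 6 hrs, the LPS cells received 1 μM LPS for 6 hrs, and the 3 remaining arrays are from untreated control cells. All cells were grown in RPMI with foetal calf serum. Each of 3 batches, which the labels also number as biological replicates, gave 1 array per condition, so that every CD40L array has an LPS array of its own batch. The doses are in different units, and each stimulus was given at a single dose and time.

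CD40 is a receptor of the TNF receptor family on B cells. Its ligand on helper T cells makes it recruit TRAF adaptor proteins, which open the canonical NF-κB pathway and, through the kinase NIK (MAP3K14) and the processing of the NFKB2 product, the non-canonical one. LPS, a glycolipid of the bacterial outer membrane, is sensed by TLR4 together with LY96 and CD14, and signals through the adaptors MYD88, towards NF-κB, and TICAM1, towards interferon regulatory factors and interferon-stimulated genes.

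Levels are given as deposited, in log2 units that flatten near the floor. They spanned 5.46 to 14.8, and the median of an array was 6.42 to 6.47. Arrays of 1 condition correlated at 0.994 to 0.997 over all probe sets, and so did CD40L arrays with LPS arrays. All 10 B cell markers measured lay above the median level of the probe sets, against 5 of 14 markers of T and NK cells, 3 of 13 of monocytes and macrophages and 3 of 9 of fibroblasts. The GAPDH control probe sets for the 3′ and the 5′ end of the transcript, a sign of RNA integrity, differed by 0.132 to 0.225 (log2) in the CD40L arrays and by 0.13 to 0.161 in the LPS arrays.

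CD40L and LPS left the cells with largely like expression levels, and most of the probe sets that told them apart were higher after CD40L. At an adjusted p of at most 0.05, 164 probe sets were higher after CD40L than after LPS (0.3% of the probe sets tested) and 52 were lower (0.0952%). They named 110 and 35 genes, respectively, and 14 and 6 of them had no single gene name. Of the genes named, 105 had more than 1 probe set. More than 1 probe set passed for 36 of these, 0 passed both ways, and all probe sets were of 1 sign for 84. Differences were moderate, since no probe set reached 2-fold, 29 reached 1.5-fold (25 higher, 4 lower), and the medians were 0.42 (log2) among the higher and −0.39 among the lower ones, against 0.0049 over all probe sets. Of the probe sets that passed, 209 had a level above the median level of all. RNA came from whole cultures, so that more responding cells and a larger response per cell cannot be told apart.

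**Figure D1:**
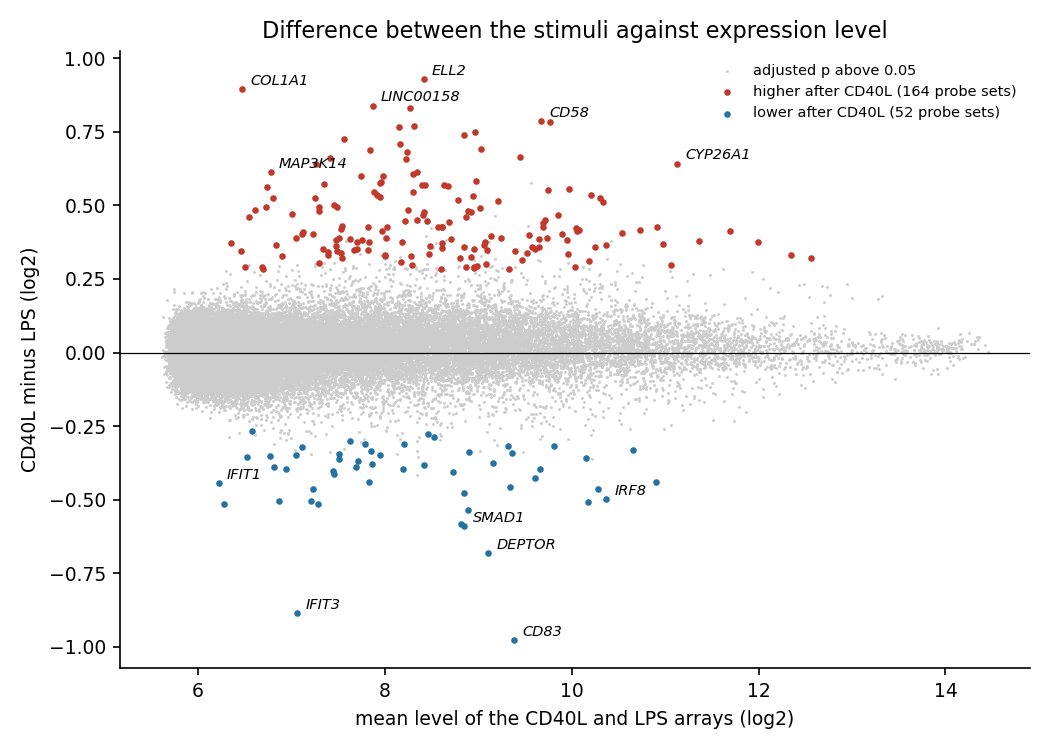
Difference between CD40L and LPS (mean log2 level of the 3 CD40L arrays minus that of the 3 LPS arrays, y axis) against the mean log2 level of the 6 arrays (x axis), 1 point per probe set. The 164 probe sets that were higher after CD40L are red and the 52 that were lower are blue, and the extremes are ELL2 at 0.93 and CD83 at −0.98.

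All 216 probe sets had the same sign in batch 1, batch 2 and batch 3, with a median size of 0.41, 0.41 and 0.43 in turn. The probe sets were selected by a test on these same arrays. Like signs and sizes, and the separation of arrays given next, are thus favoured by the selection and are no further support. The CD40L and LPS arrays did not overlap for 158 of the higher and 47 of the lower ones, where 5.1% and 4.07% of all probe sets had all CD40L arrays above or below all LPS arrays. Over all probe sets the differences of batch 1 correlated at 0.194 with those of batch 2 and at 0.173 with those of batch 3, while batches 2 and 3 gave 0.037, a description across probe sets that are not independent. Without batch 1 the counts were 57 higher and 9 lower, without batch 2 they were 196 and 102, and without batch 3 they were 29 and 5. Single arrays mattered as well, as the counts were 97 and 14, 79 and 33, and 64 and 7 without the CD40L array of batch 1, 2 or 3, and 56 and 10, 89 and 24, and 58 and 11 without the LPS array of batch 1, 2 or 3.

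Receptors of the stimuli did not pass the test. For CD40 the arrays read 8.85, 8.98 and 8.92 after CD40L and 9.01, 8.93 and 8.88 after LPS, and these ranges overlap (difference −0.02, 95% confidence interval −0.15 to 0.11, adjusted p = 0.999). TLR4 had 7.19, 7.18 and 6.93 after CD40L and 7.27, 7.31 and 7.18 after LPS (difference −0.15, interval −0.30 to −0.0038, adjusted p = 0.989). Its co-receptors were dim, with 6.48 to 6.51 after CD40L and 6.39 to 6.56 after LPS for LY96, and 6.17 to 6.28 and 6.12 to 6.18 for CD14. The adaptors MYD88 and TICAM1 had differences of 0.03 and −0.10, with intervals of −0.12 to 0.19 and −0.22 to 0.02. CD180 and LY86, the B cell pair that modulates LPS sensing, had −0.11 and −0.07. Among 20 receptors, adaptors and kinases of LPS sensing none passed in either direction (median 0.02), with IRAK2, a kinase next to MYD88, at −0.27 (adjusted p = 0.132). By the brightest probe set of each gene, 0.491% of all 19775 genes were higher after CD40L and 0.152% lower, with a median of 0.0081. These shares are the background for each list count below. Most probe sets that passed lay above the median level, so that lists of brighter genes are not like for like.

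The kinase and the precursor of the non-canonical NF-κB pathway were higher after CD40L. MAP3K14, the kinase NIK, read 7.15, 7.13 and 6.97 after CD40L and 6.47, 6.35 and 6.59 after LPS, beside 6.35, 6.52 and 6.45 in control cells. All 3 CD40L arrays lay above the other 6, and the LPS and control arrays overlapped. The difference was 0.61 (standard error 0.0744, adjusted p = 0.000628), and against control MAP3K14 changed by 0.64 after CD40L and by 0.03 after LPS (adjusted p = 0.951). This is the only probe set of MAP3K14. Its control and LPS arrays lay near the array medians of 6.42 to 6.47, so that low signal limits the LPS value. NFKB2, which encodes the p100 precursor of the p52 subunit, had 8.76, 8.80 and 8.53 after CD40L and 8.06, 8.05 and 7.68 after LPS. These arrays did not overlap either, and NFKB2 was 1.71-fold higher after CD40L (difference 0.77, standard error 0.0635, adjusted p = 1.57e-05), with 2 of its 3 probe sets past the threshold. MAP3K14 was the 1 gene of 13 in the list of CD40, TRAF adaptors and kinases to pass (0 lower, median 0.02). TANK and TNFAIP3, a TRAF-binding protein and a ubiquitin-editing inhibitor of NF-κB, had 0.28 (adjusted p = 0.182) and 0.24 (adjusted p = 0.16).

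Of 14 NF-κB subunits and inhibitors, 3 were higher and 1 was lower after CD40L (median 0.08). NFKBIE, an inhibitor that holds NF-κB in the cytoplasm, was higher by 0.33 (adjusted p = 0.0172), with overlapping arrays, and CYLD, a deubiquitinase that restrains the pathway, by 0.30 (adjusted p = 0.0446). This is the brightest of 7 CYLD probe sets, of which 3 passed, the others with 0.38 (adjusted p = 0.00612) and 0.37 (adjusted p = 0.0136). NFKBIZ, a nuclear inhibitor family member that also acts as a coactivator, went the other way. Its probe set of largest difference read 10.07, 9.75 and 9.93 after CD40L, 10.55, 10.12 and 10.61 after LPS and 10.32, 9.83 and 10.09 in control cells. Within every batch the LPS array was highest and the CD40L array lowest, and the difference was −0.51 (standard error 0.067, adjusted p = 0.00136). The brightest probe set of NFKBIZ gave −0.44 (adjusted p = 0.0283). RELA, REL and NFKB1 were measured in this list and did not pass. The calls of NFKBIE and of the brightest CYLD probe set were lost without batch 1 or batch 3 and without any single CD40L or LPS array (adjusted p = 0.0695 to 0.347 and 0.0855 to 0.693), as well as without the batch term (adjusted p = 0.788 and 0.0997) and with the batch as a random effect (adjusted p = 0.486 and 0.0684). That of this CYLD probe set was also lost without dim probe sets (adjusted p = 0.0639) and with trend and robust eBayes (adjusted p = 0.0985). That of the first NFKBIZ probe set was lost without batch 3 (adjusted p = 0.119), without the CD40L array of batch 3 (adjusted p = 0.0507), without the batch term (adjusted p = 0.535) and with the batch as a random effect (adjusted p = 0.303). That of its brightest probe set was lost without batch 1 (adjusted p = 0.144), without batch 3 (adjusted p = 0.807), without 5 of the 6 single arrays (adjusted p = 0.1 to 0.443), without the batch term (adjusted p = 0.229) and with the batch as a random effect (adjusted p = 0.152).

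Beyond this pathway, the largest differences in favour of CD40L were those of a varied group. ELL2, a transcription elongation factor that promotes the secretory immunoglobulin transcript in plasma cells, read 8.71, 9.08 and 8.85 after CD40L and 7.98, 8.06 and 7.81 after LPS, 1.91-fold apart (difference 0.93, standard error 0.0694, adjusted p = 7.55e-06). The CD40L arrays were all above the LPS arrays, and 3 of 4 ELL2 probe sets passed. LINC00158, a long non-coding RNA, had 8.14, 8.38 and 8.35 against 7.34, 7.45 and 7.56 (difference 0.84, adjusted p = 7.55e-06). DOCK10, a guanine nucleotide exchange factor, had 8.72, 8.79 and 8.55 against 7.94, 7.86 and 7.76 (difference 0.83, adjusted p = 7.55e-06), although its dimmer second probe set gave 0.09 (adjusted p = 0.999). CD58, the adhesion molecule that binds CD2 on T cells, reached 9.93, 10.20 and 10.05 after CD40L and 9.14, 9.40 and 9.28 after LPS (difference 0.79, adjusted p = 0.000336). In control cells CD58 read 8.63, 8.31 and 8.39, below every stimulated array.

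**Figure D2:**
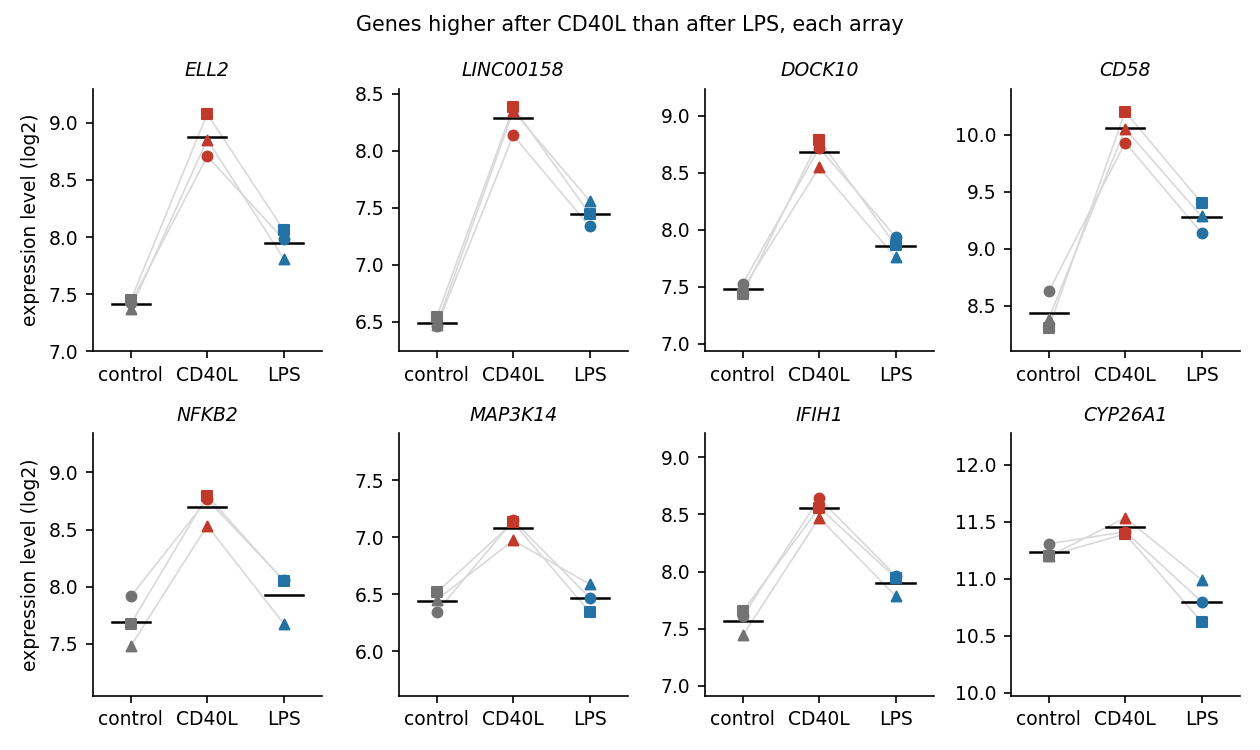
Log2 expression level (y axis, the same span in every panel) of 8 genes that were higher after CD40L than after LPS, in control, CD40L and LPS cells. Circles, squares and triangles are batches 1, 2 and 3, grey lines join the arrays of a batch and black bars are means of 3 arrays. The CD40L arrays lie above the LPS arrays in all 8 panels.

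Other genes among the 15 with the largest positive differences had varied roles. BTN2A2, a butyrophilin that dampens T cell activation, was higher by 0.77 (adjusted p = 8.04e-06), as the 1 of 8 butyrophilins measured by their brightest probe set to pass. Its dimmer probe sets gave 0.21 and 0.12 and did not pass. BMP2K, a kinase of the endocytic machinery, was higher by 0.71, with 5 of its 6 probe sets past the threshold. CTSH, a lysosomal cysteine protease, had 0.69, and WNT5A, a secreted ligand of non-canonical Wnt signalling, 0.69, with both of its probe sets past the threshold and no other gene of 27 in the Wnt list called. PLEKHO1 and DENND4A, a pleckstrin homology domain protein and an exchange factor for Rab GTPases, had 0.68 and 0.67. CYP26A1, the enzyme that degrades retinoic acid, took another course, as it read 11.41, 11.39 and 11.53 after CD40L, 10.80, 10.62 and 10.99 after LPS and 11.31, 11.20 and 11.20 in control cells. LPS arrays of CYP26A1 were thus below both other conditions, and its difference of 0.64 (adjusted p = 0.000181) held a change of −0.43 after LPS (adjusted p = 0.00315) beside 0.21 after CD40L (adjusted p = 0.0974).

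Of the 15 genes with the largest positive differences, 13 passed under every alternative that was run for them. The call of CD58 was lost without batch 3 (adjusted p = 0.0931) and that of PLEKHO1 without the batch term (adjusted p = 0.105). Among the 15 genes with the largest negative differences, only CD83, IFIT3 and SMAD1 passed under every alternative.

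CD83 had the largest difference in favour of LPS. This marker of activated B cells and mature dendritic cells read 9.01, 8.88 and 8.81 after CD40L, 9.91, 9.84 and 9.86 after LPS and 10.05, 9.97 and 9.72 in control cells. CD40L arrays were all below the others, whereas LPS and control arrays overlapped. The difference was −0.98 (standard error 0.0626, adjusted p = 3.33e-06), 1.97-fold, and it was −0.91, −0.97 and −1.05 in batches 1, 2 and 3. Against control CD83 changed by −1.02 after CD40L (adjusted p = 9.52e-08) and by −0.04 after LPS (adjusted p = 0.905).

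**Figure D3:**
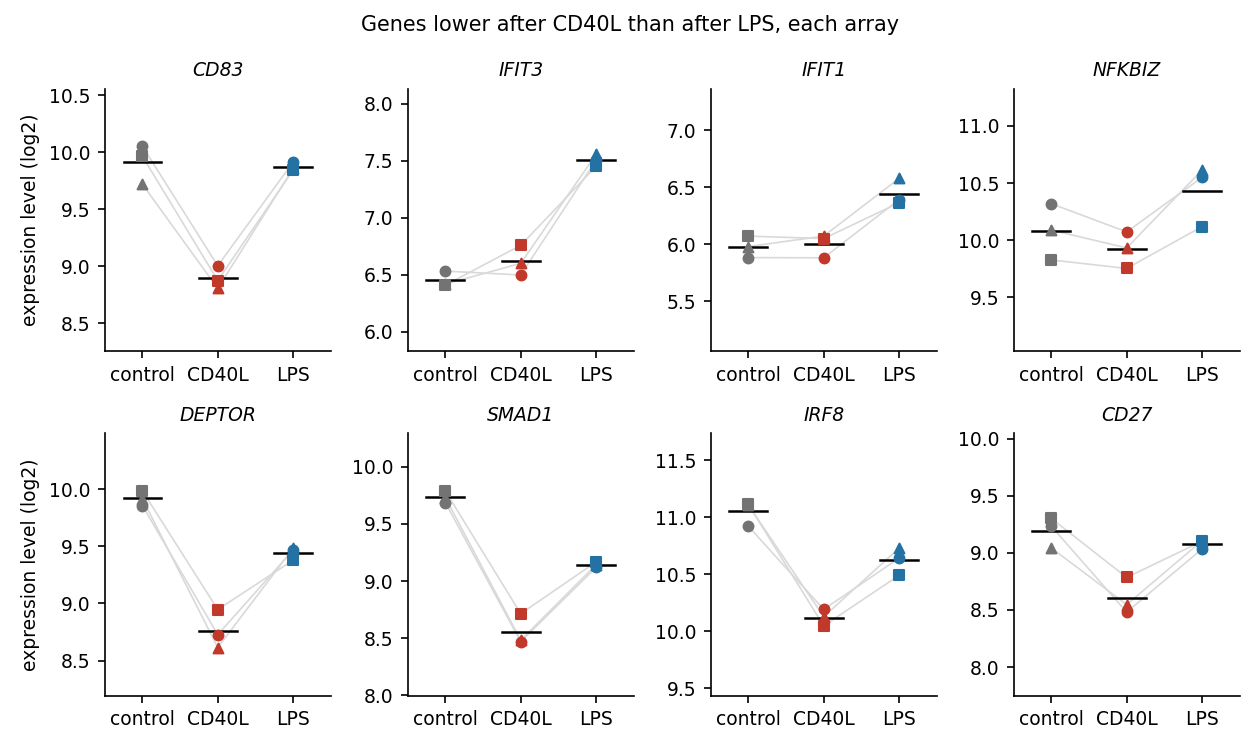
Log2 expression level (y axis, the same span in every panel) of 8 genes that were lower after CD40L than after LPS, in control, CD40L and LPS cells. Circles, squares and triangles are batches 1, 2 and 3, grey lines join the arrays of a batch and black bars are means of 3 arrays. LPS arrays of IFIT3 and IFIT1 lie above both other conditions, and CD40L arrays of CD83 lie below them.

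IFIT1, IFIT2 and IFIT3, genes of the interferon response, were higher after LPS than after CD40L. IFIT3 read 6.50, 6.76 and 6.60 after CD40L, 7.50, 7.45 and 7.56 after LPS and 6.53, 6.41 and 6.42 in control cells. Every LPS array was above all CD40L and control arrays, and the difference was −0.89 (standard error 0.07, adjusted p = 1e-05), with −0.50 (adjusted p = 0.00321) from the second probe set. IFIT1 had 5.88, 6.05 and 6.07 after CD40L and 6.39, 6.36 and 6.58 after LPS (difference −0.44, adjusted p = 0.00264). IFIT2 had 5.94, 6.12 and 6.02 after CD40L and 6.50, 6.76 and 6.36 after LPS (difference −0.51, adjusted p = 0.00136). IFIT1 and this probe set of IFIT2 lay close to the floor of the arrays, where the scale is flatter and a fold is understated. The brightest probe set of IFIT2 lay above the array median, with 6.53, 6.64 and 6.63 after CD40L and 6.95, 7.05 and 6.85 after LPS, and gave −0.35 (adjusted p = 0.0208). Against control, IFIT3 rose by 1.05 and IFIT1 by 0.47 after LPS, and had 0.17 and 0.02 after CD40L (adjusted p = 0.244 and 0.934). The IFIT2 probe sets differed in this. The dimmer one changed by 0.34 after LPS (adjusted p = 0.0124) and by −0.17 after CD40L (adjusted p = 0.203). Its brightest one changed by 0.09 after LPS (adjusted p = 0.707) and by −0.26 after CD40L (adjusted p = 0.0232).

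Most other interferon-stimulated genes did not pass the test. Of 36 measured, 1 was higher and 3 were lower after CD40L, with a median of −0.03. The 3 lower ones by their brightest probe sets were IFIT1, IFIT2 and IFIT3. The higher one was IFIH1, the cytoplasmic sensor MDA5, which read 8.64, 8.56 and 8.47 after CD40L, 7.96, 7.95 and 7.79 after LPS and 7.61, 7.65 and 7.44 in control cells. CD40L arrays of IFIH1 were highest and the difference was 0.66 (standard error 0.0555, adjusted p = 1.91e-05), while its 2 dimmer probe sets gave 0.19 and 0.04 and did not pass. CXCL10, a chemokine induced by interferon, was also higher after CD40L, with 6.60, 6.69 and 6.65 against 6.27, 6.44 and 6.36 (difference 0.29, adjusted p = 0.0242). Without batch 1 the calls of IFIT1 (adjusted p = 0.178), IFIT2 (adjusted p = 0.0572 and, by its brightest probe set, 0.473) and CXCL10 (adjusted p = 0.682) were lost. The calls of IFIT1 (adjusted p = 0.173) and CXCL10 (adjusted p = 0.418) were also lost without batch 3, that of IFIT1 without the CD40L array of batch 3 or the LPS array of batch 1 or 3 (adjusted p = 0.0585 to 0.0759), and that of CXCL10 without any single CD40L or LPS array (adjusted p = 0.0838 to 0.301). Without the batch term IFIT2 (adjusted p = 0.068 and, by its brightest probe set, 0.171) and CXCL10 (adjusted p = 0.19) missed the threshold. The brightest IFIT2 probe set and CXCL10 also did so with the batch as a random effect (adjusted p = 0.106 and 0.109), and that IFIT2 probe set without batch 3 (adjusted p = 0.124) and without 5 of the 6 single arrays (adjusted p = 0.145 to 0.398). The IFIT3 probe set of largest difference and IFIH1 passed under every alternative.

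Promoters of these genes are shown because genes with like sequence elements moved apart. The RefSeq table of GRCh38.p14 promoters held 85 of the 110 genes that were higher and 27 of the 35 that were lower after CD40L, and the 250 bases before the annotated start were searched on both strands for GAAA followed, after any 2 bases, by a further GAAA (a spaced GAAA pair), the core of the element that interferon-activated factors bind, and for the κB consensus of NF-κB. The window of IFIT3 lies at chr10:89327747-89327996 on the plus strand, that of IFIT1 at chr10:89392373-89392622 on the plus strand, IFIH1 at chr2:162318685-162318934 on the minus strand, TAP1 at chr6:32853705-32853954 on the minus strand and CXCL10 at chr4:76023498-76023747 on the minus strand, and each sequence reads 5′ to 3′ towards the gene. Capitals mark a spaced GAAA pair, or the TTTC pair that it gives on the other strand, in IFIT3 and IFIT1, and either these or κB matches, which begin with GG, in the others. Matches of the 2 motifs did not overlap each other in these 5 promoters, but matches of the spaced GAAA pair on 1 strand ran together in IFIH1 and TAP1.
IFIT3: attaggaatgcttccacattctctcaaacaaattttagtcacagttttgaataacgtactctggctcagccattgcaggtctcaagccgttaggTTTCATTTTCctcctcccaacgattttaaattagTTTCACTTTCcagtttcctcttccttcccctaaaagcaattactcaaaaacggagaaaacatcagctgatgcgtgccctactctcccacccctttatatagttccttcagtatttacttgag
IFIT1: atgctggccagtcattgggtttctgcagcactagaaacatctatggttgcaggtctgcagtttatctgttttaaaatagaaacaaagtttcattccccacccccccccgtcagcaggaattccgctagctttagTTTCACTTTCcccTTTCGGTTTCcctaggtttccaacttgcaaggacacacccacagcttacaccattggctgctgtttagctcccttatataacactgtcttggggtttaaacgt
IFIH1: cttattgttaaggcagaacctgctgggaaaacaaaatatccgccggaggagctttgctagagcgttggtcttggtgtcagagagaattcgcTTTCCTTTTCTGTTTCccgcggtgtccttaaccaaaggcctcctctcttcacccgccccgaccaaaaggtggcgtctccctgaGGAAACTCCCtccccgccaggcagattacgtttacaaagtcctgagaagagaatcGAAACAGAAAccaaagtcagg
TAP1: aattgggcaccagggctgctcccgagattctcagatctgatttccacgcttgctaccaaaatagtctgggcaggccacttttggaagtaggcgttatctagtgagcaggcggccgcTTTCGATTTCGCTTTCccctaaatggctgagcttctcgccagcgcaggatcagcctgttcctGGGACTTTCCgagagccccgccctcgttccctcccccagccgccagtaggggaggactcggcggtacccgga
CXCL10: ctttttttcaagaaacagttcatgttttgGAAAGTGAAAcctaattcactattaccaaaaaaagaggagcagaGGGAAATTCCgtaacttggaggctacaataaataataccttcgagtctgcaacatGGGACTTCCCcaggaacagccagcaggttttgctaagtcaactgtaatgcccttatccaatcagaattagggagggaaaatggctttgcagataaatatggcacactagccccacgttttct

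IFIT3 and IFIT1 hold 2 matches of the spaced GAAA pair each and none of the κB consensus. IFIH1 holds 3 and 1, TAP1, the peptide transporter of class I presentation, 2 and 1, and CXCL10 1 and 2. The spaced GAAA pair was found for 9 of 85 genes higher after CD40L (10.6%) and for 2 of 27 lower ones (7.41%, IFIT1 and IFIT3), against 3.07% of all 27305 promoters. The κB consensus was found for 11 (12.9%) and 2 (7.41%), against 5.05%. Those 27305 promoters were not limited to genes measured or expressed here, so that the shares are not like for like. Enrichment was not tested. NFKB2, CD83, ICAM1 and FAS held no exact match of either in this window. The κB pattern searched was GGGRNWYYCC (R is A or G, W is A or T, Y is C or T, N is any base). Sites that depart from it were not counted, and ICAM1 holds tggaaattcc, which departs in the first base. Lack of an exact match is thus no sign that a gene lacks a κB site. A match is a description of letters and does not show that a factor binds there.

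NF-κB target genes that passed were mostly higher after CD40L, with CD83 and IER3 as the lower ones. Of 31 measured, 9 were higher and 2 lower after CD40L (median 0.03). CCR7, the chemokine receptor for homing to lymph nodes, read 7.949, 8.191 and 7.995 after CD40L, 7.381, 7.716 and 7.240 after LPS and 7.539, 7.993 and 7.311 in control cells (difference 0.60, adjusted p = 0.000722). ICAM1, the ligand of LFA-1, had 8.76, 8.57 and 8.39 after CD40L and 8.16, 8.12 and 7.81 after LPS (difference 0.54, adjusted p = 0.000494). In both genes the CD40L arrays were above the LPS arrays, and the change of CCR7 against control was 0.43 after CD40L and −0.17 after LPS (adjusted p = 0.376). CFLAR, which blocks caspase 8 at death receptors, was higher by 0.58 (adjusted p = 0.00136), with 4 of its 14 probe sets past the threshold. FAS, a death receptor itself, had 7.50, 7.46 and 7.58 after CD40L and 6.95, 7.06 and 6.96 after LPS (difference 0.52, adjusted p = 0.000745), and 4 of its 5 probe sets passed. IER3, an early response gene that protects against TNF-induced death, had 6.75, 7.01 and 7.11 after CD40L and 7.29, 7.41 and 7.69 after LPS (difference −0.51, adjusted p = 0.00856).

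Without batch 3 the calls of CCR7 (adjusted p = 0.0524), ICAM1 (adjusted p = 0.0961), CFLAR (adjusted p = 0.183), FAS (adjusted p = 0.13) and IER3 (adjusted p = 0.123) were lost, as were those of CFLAR without the CD40L array of batch 3 (adjusted p = 0.0507), of IER3 without batch 1 or an array of batch 1 or 3 of either stimulus (adjusted p = 0.0613 to 0.194), and of CCR7, ICAM1 and IER3 without the batch term (adjusted p = 0.414, 0.231 and 0.13) and with the batch as a random effect (adjusted p = 0.219, 0.112 and 0.0814).

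Among 27 ligands and receptors of the TNF superfamily, 2 were higher and 1 was lower after CD40L (median −0.01). CD70 and TNFSF4 (OX40 ligand), through which B cells costimulate T cells, were higher by 0.35 (adjusted p = 0.0181) and 0.34 (adjusted p = 0.0105). CD27, the receptor of CD70 and a memory B cell marker, was lower, with 8.48, 8.79 and 8.55 after CD40L, 9.03, 9.10 and 9.11 after LPS and 9.23, 9.30 and 9.04 in control cells. CD40L arrays of CD27 were all below the others (difference −0.48, adjusted p = 0.00261), and LPS arrays overlapped control. ALCAM, the ligand of CD6 on T cells, had 8.87, 8.90 and 8.99 after CD40L and 8.41, 8.23 and 8.41 after LPS (difference 0.57, adjusted p = 0.000171), and the adhesion and costimulation list had 3 of 26 members higher and 1 lower (median −0.02), the latter CD83. ACKR3, a chemokine scavenging receptor, was lower by a difference of −0.36 (adjusted p = 0.0176), and chemokines and their receptors gave 2 of 25 higher, CCR7 and CXCL10, and ACKR3 lower. Dimmer ACKR3 probe sets gave −0.16 and −0.08 and did not pass. The calls of CD70, TNFSF4, CD27 and ACKR3 were lost without batch 1 (adjusted p = 0.696, 0.153, 0.109 and 0.156), without batch 3 (adjusted p = 0.104, 0.264, 0.162 and 0.637) and without 4 or 5 of the 6 single arrays each (adjusted p = 0.0518 to 0.312). Without the batch term all 4 were lost (adjusted p = 0.0701, 0.106, 0.0588 and 0.113), and with the batch as a random effect TNFSF4 and ACKR3 were (adjusted p = 0.0602 and 0.0723).

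Genes of antigen presentation by both classes of MHC were higher after CD40L where they passed. Of 20 class II genes measured, 4 were higher and none lower, with a median of 0.20, the highest among the lists, and 16 had a positive difference. Over all genes 0.491% were higher and 0.152% lower, while all 20 class II genes lay above the median level of the probe sets. HLA-DQA1, a class II chain, read 10.98, 10.91 and 10.94 after CD40L, 10.59, 10.40 and 10.59 after LPS and 10.10, 9.79 and 9.92 in control cells. The 3 conditions did not overlap, the difference was 0.42 (standard error 0.0608, adjusted p = 0.00321), and all 3 probe sets of HLA-DQA1 passed. CIITA, the transactivator of class II genes, was higher by 0.39 (adjusted p = 0.00438) and RFX5, a subunit of the promoter complex on which CIITA acts, by 0.41 (adjusted p = 0.00226). HLA-DPB1 had 0.37 (adjusted p = 0.014). Dimmer probe sets did not pass, with 0.22 and 0.05 for CIITA, 0.38 for RFX5 and 0.05 for HLA-DPB1. Other class II chains and chaperones such as HLA-DRA (0.18), CD74 (0.23) and HLA-DMA (0.24) did not pass. Each of the 4 called genes was above control after both stimuli, by 1.01, 0.79, 0.81 and 0.63 after CD40L and by 0.59, 0.40, 0.39 and 0.26 after LPS, in the order HLA-DQA1, CIITA, RFX5, HLA-DPB1, where the last value did not pass (adjusted p = 0.0535).

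Of 18 class I genes, 2 were higher and none lower (median 0.14). TAP1 read 8.84, 8.90 and 8.75 after CD40L and 8.49, 8.33 and 8.39 after LPS (difference 0.43, adjusted p = 0.00255). HLA-F, a non-classical class I chain, was higher by 0.41 (adjusted p = 0.002), although probe sets of HLA genes can take up transcripts of related HLA genes and the gene behind a value is uncertain. Other HLA-F probe sets gave 0.28 (adjusted p = 0.0607) and 0.05 and did not pass. Catalytic subunits of the proteasome, which cuts the peptides, gave 0 of 10 in either direction (median 0.04). Without batch 1 and without batch 3 the calls of HLA-DQA1 (adjusted p = 0.0806 and 0.118), CIITA (adjusted p = 0.109 and 0.259), RFX5 (adjusted p = 0.0988 and 0.104), HLA-DPB1 (adjusted p = 0.306 and 0.172), TAP1 (adjusted p = 0.059 and 0.107) and HLA-F (adjusted p = 0.106 and 0.0908) were lost, and those of HLA-DQA1, CIITA, RFX5, HLA-DPB1 and HLA-F also without the LPS array of batch 1 (adjusted p = 0.0822, 0.0685, 0.0514, 0.183 and 0.0585). Those of HLA-DQA1, CIITA, RFX5 and HLA-DPB1 were lost without the batch term (adjusted p = 0.0903, 0.0858, 0.0645 and 0.535), and that of HLA-DPB1 with the batch as a random effect (adjusted p = 0.327). HLA-DQA1 and CIITA missed the threshold without the CD40L array of batch 3 (adjusted p = 0.0507 and 0.092), CIITA without the LPS array of batch 3 (adjusted p = 0.101), and HLA-DPB1 without the CD40L array of batch 1 or 2 or the LPS array of batch 2 or 3 (adjusted p = 0.0935 to 0.146).

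**Figure D4:**
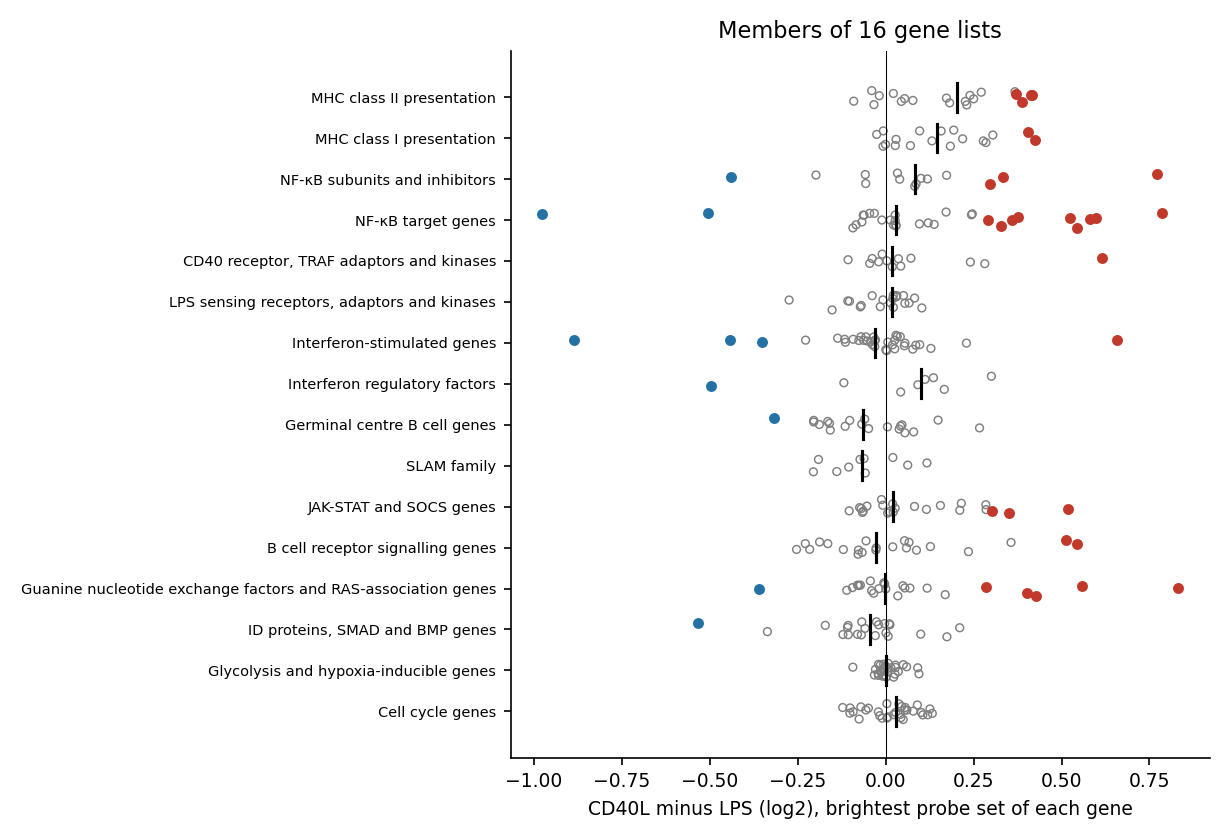
Difference between CD40L and LPS (log2, x axis) of the members of 16 gene lists, 1 point per gene by its brightest probe set. Filled points passed the test (red higher, blue lower after CD40L), open points did not, and the black bar is the median of a list, 0.20 for MHC class II and 0.14 for MHC class I presentation.

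Signalling genes that passed went both ways, more of them being higher after CD40L. In the JAK-STAT list 3 of 23 were higher and none lower (median 0.02). IL2RG, the common γ chain of several interleukin receptors, read 9.11, 9.12 and 8.91 after CD40L, 8.59, 8.58 and 8.41 after LPS and 8.74, 8.50 and 8.46 in control cells (difference 0.52, adjusted p = 0.000503). CD40L arrays of IL2RG were highest, and LPS arrays overlapped the control arrays. SOCS1, a feedback inhibitor of JAK kinases, was higher by 0.35 (adjusted p = 0.0248), and its change against control was 0.04 after CD40L and −0.31 after LPS. Other SOCS1 probe sets gave −0.01 to 0.13 and did not pass. JAK1 itself was higher by 0.30 (adjusted p = 0.0409), while its other probe sets gave −0.06 to 0.17 and did not pass. Among 22 genes of B cell receptor signalling 2 were higher and none lower (median −0.03), namely PIK3CD, the leukocyte PI3 kinase subunit (difference 0.51, adjusted p = 0.000341), and VAV2, a guanine nucleotide exchange factor (difference 0.54, adjusted p = 0.00122). By a dimmer probe set CD22, an inhibitory co-receptor of that list, was lower, by a difference of −0.335 (adjusted p = 0.0153), and its brightest one gave −0.25 (adjusted p = 0.108). Dimmer probe sets of VAV2 gave 0.19 and 0.08, and that of PIK3CD gave 0.38 (adjusted p = 0.154), and none of them passed. Guanine nucleotide exchange factors and RAS-association genes gave 5 of 24 higher and 1 lower (median −0.0014).

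RASSF2 (0.56, adjusted p = 0.00058) and RASSF5 (0.40, adjusted p = 0.0158), adaptors with a RAS-association domain, were higher after CD40L, while RASSF6 of the same family was lower, with 9.83, 10.15 and 9.93 after CD40L, 10.28, 10.42 and 10.28 after LPS and 10.64, 10.78 and 10.79 in control cells (difference −0.36, adjusted p = 0.0129). The 3 conditions of RASSF6 did not overlap by this probe set, while its dimmer ones gave −0.18 and −0.19 and did not pass. TIAM1, a Rac exchange factor, was higher by 0.43 (adjusted p = 0.00222), and its dimmer probe set gave 0.25 (adjusted p = 0.182). The transcription factors BATF (0.36, adjusted p = 0.0181) and ATF5 (0.43, adjusted p = 0.0177) were the 2 of 22 in the AP-1, CREB and EGR list to pass. DUSP22, a dual specificity phosphatase, was 1 of 16 (0.36, adjusted p = 0.0133).

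Without batch 3 the calls of IL2RG (adjusted p = 0.0755), PIK3CD (adjusted p = 0.0759), VAV2 (adjusted p = 0.118), RASSF2 (adjusted p = 0.0856) and TIAM1 (adjusted p = 0.137) were lost, that of TIAM1 also without the LPS array of batch 3 (adjusted p = 0.0614). SOCS1, JAK1, RASSF5, RASSF6, BATF, ATF5 and DUSP22 lost theirs without batch 1, without batch 3 and without 5 or 6 of the 6 single arrays, as well as without the batch term (adjusted p = 0.13, 0.197, 0.0882, 0.228, 0.223, 0.138 and 0.178) and with the batch as a random effect (adjusted p = 0.0575 to 0.131). JAK1 also missed the threshold after median centring (adjusted p = 0.0528), without dim probe sets (adjusted p = 0.0584) and with trend and robust eBayes (adjusted p = 0.0989).

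Several regulators that fell after both stimuli were lower after CD40L. SMAD1, a transducer of BMP signals, read 8.47, 8.71 and 8.48 after CD40L, 9.12, 9.17 and 9.14 after LPS and 9.69, 9.79 and 9.73 in control cells. The 3 conditions did not overlap, and the difference was −0.59 (standard error 0.0593, adjusted p = 9.83e-05), with 2 of 3 probe sets past the threshold. By the brightest probe set of each gene SMAD1 (−0.53, adjusted p = 0.000815) was the 1 of 22 ID proteins, SMADs and BMPs to pass (median −0.04). BMP7, a BMP ligand, had −0.34 by its brightest probe set (adjusted p = 0.151), while another of its 4 probe sets passed with −0.37 (adjusted p = 0.0296). DEPTOR, an inhibitor of mTOR, had 8.73, 8.95 and 8.61 after CD40L, 9.47, 9.38 and 9.48 after LPS and 9.86, 9.99 and 9.92 in control cells (difference −0.68, adjusted p = 0.000156), and was the 1 of 21 mTOR and LKB1 partner genes called by its brightest probe set. A DEPTOR probe set close to the floor gave −0.0066 (adjusted p = 0.999). CAB39L, a partner of LKB1, had −0.44 (adjusted p = 0.00601) from 1 of 3 probe sets. IRF8, a transcription factor of germinal centre B cells, had 10.19, 10.05 and 10.13 after CD40L, 10.64, 10.49 and 10.73 after LPS and 10.92, 11.11 and 11.11 in control cells (difference −0.50, adjusted p = 0.00226). It was the 1 of 8 interferon regulatory factors to pass, beside IRF5 at 0.30 (adjusted p = 0.182).

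HMCES, which shields abasic sites in DNA, had 8.59, 8.49 and 8.50 after CD40L, 9.32, 8.84 and 9.16 after LPS and 9.82, 10.09 and 9.96 in control cells (difference −0.58, adjusted p = 0.009). A dimmer HMCES probe set gave −0.17 (adjusted p = 0.89). TRIB2, a pseudokinase, had −0.41 (adjusted p = 0.0409), and ANKRD36BP2 and PDZRN4 had −0.52 (adjusted p = 0.00155) and −0.46 (adjusted p = 0.00387). CD38, an ectoenzyme of germinal centre and plasma cells, was the 1 of 20 germinal centre genes called (−0.32, adjusted p = 0.0411), where 8 of the 20 had a positive difference and the median was −0.06. HHEX, a homeobox repressor, had −0.30 (adjusted p = 0.0387), and PMAIP1, the BH3-only protein NOXA, −0.33 (adjusted p = 0.0183), with a change against control of −0.08 after CD40L and 0.26 after LPS. Dimmer probe sets of HHEX and PMAIP1 gave −0.21 (adjusted p = 0.584) and −0.28 (adjusted p = 0.0955). POU2AF1, a B cell coactivator of immunoglobulin promoters, was the 1 of 10 B cell markers called by the brightest probe set and was higher after CD40L (0.38, adjusted p = 0.0189), with 0.04 after CD40L and −0.34 after LPS against control.

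The call of the SMAD1 probe set of largest difference held under every alternative, while that of its brightest probe set was lost without the batch term (adjusted p = 0.235), with the batch as a random effect (adjusted p = 0.116) and without batch 3 (adjusted p = 0.0898). The call of DEPTOR was lost without batch 3 (adjusted p = 0.0507), that of ANKRD36BP2 without batch 1 (adjusted p = 0.0519) or the LPS array of batch 1 (adjusted p = 0.0527), and that of IRF8 without batch 3 (adjusted p = 0.242), the CD40L array of batch 3 (adjusted p = 0.0743) or the LPS array of batch 1 or 3 (adjusted p = 0.0637 and 0.0669). CAB39L, HMCES, PDZRN4, TRIB2, CD38, HHEX, PMAIP1 and POU2AF1 lost theirs without batch 1 (adjusted p = 0.304, 0.111, 0.148, 0.0907, 0.615, 0.696, 0.518 and 0.109), without batch 3 (adjusted p = 0.132, 0.541, 0.201, 0.814, 0.8, 0.521, 0.618 and 0.468), without the batch term (adjusted p = 0.0556, 0.0679, 0.0571, 0.514, 0.34, 0.69, 0.163 and 0.0696) and without 4 to 6 of the 6 single arrays. TRIB2, CD38, HHEX and PMAIP1 also lost theirs with the batch as a random effect (adjusted p = 0.337, 0.216, 0.447 and 0.0954), and TRIB2, CD38 and HHEX after median centring (adjusted p = 0.0594, 0.068 and 0.054) and without dim probe sets (adjusted p = 0.0518, 0.0581 and 0.0563). With trend and robust eBayes CD38 and HHEX missed the threshold (adjusted p = 0.0751 and 0.0663).

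**Figure D5:**
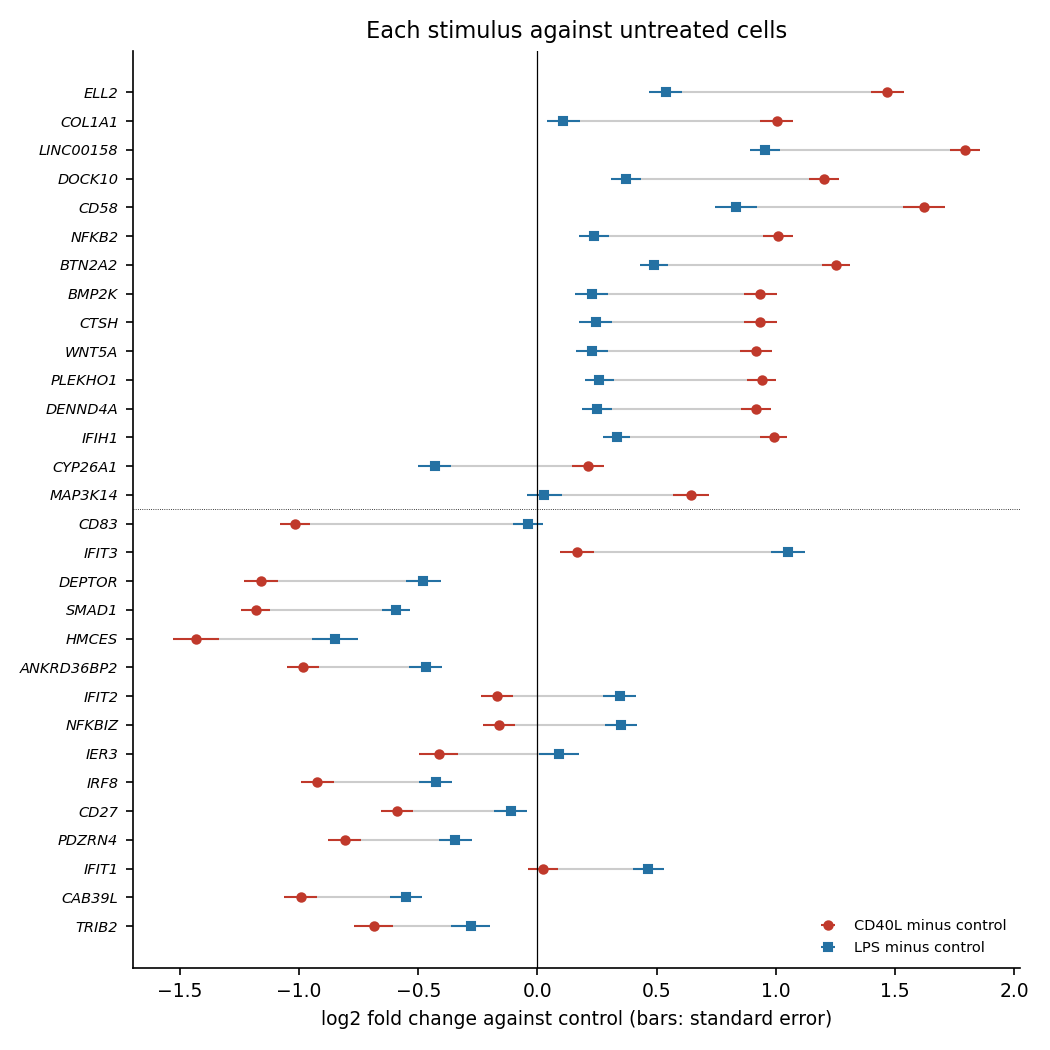
Log2 fold change against control (x axis) after CD40L (red circles) and after LPS (blue squares) for the 15 genes with the largest positive and the 15 with the largest negative difference between the stimuli, with standard errors as bars. Both fold changes of a gene share the 3 control arrays. LINC00158 has 1.79 and 0.95, CYP26A1 0.21 and −0.43, and IFIT3 0.17 and 1.05.

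Set beside each other, the changes against untreated cells had the same sign after both stimuli for the genes from ELL2 to IRF8 below. They differed in size, and the same 3 control arrays stand behind both values of a gene. ELL2 changed by 1.47 after CD40L and 0.54 after LPS, LINC00158 by 1.79 and 0.95, CD58 by 1.62 and 0.83, and BTN2A2 by 1.25 and 0.49, all past the threshold. NFKB2 had 1.01 and 0.24, CTSH 0.94 and 0.24, and BMP2K 0.93 and 0.23, where the LPS values did not pass (adjusted p = 0.0701, 0.102 and 0.127). Among genes lower after CD40L, SMAD1 had −1.18 and −0.59, DEPTOR −1.16 and −0.48, HMCES −1.43 and −0.85, and IRF8 −0.92 and −0.43, all past the threshold. Signs were opposite for NFKBIZ, with −0.16 after CD40L (adjusted p = 0.238) and 0.35 after LPS (adjusted p = 0.0108). They were also opposite for other genes named above, among them CYP26A1 (0.21 and −0.43), CCR7 (0.43 and −0.17) and IER3 (−0.41 and 0.09). PMAIP1 (−0.08 and 0.26), POU2AF1 (0.04 and −0.34) and SOCS1 (0.04 and −0.31) were further cases. In each of these genes the smaller change did not pass.

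COL1A1, a fibrillar collagen chain, had the second largest positive difference by 1 of its 5 probe sets, with 6.77, 6.99 and 6.99 after CD40L, 6.06, 5.95 and 6.05 after LPS and 5.98, 5.83 and 5.92 in control cells (difference 0.89, standard error 0.0689, adjusted p = 8.04e-06). Its other 4 probe sets did not pass, and the brightest gave −0.14 (adjusted p = 0.89). None of 9 fibroblast markers passed by the brightest probe set, and their mean level was 6.41 to 6.45 in the CD40L arrays and 6.44 to 6.47 in the LPS arrays. The probe set and the 4 others disagree, and the part of other transcripts in its signal was not tested.

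In many lists no gene passed, where 0.491% of all genes were higher and 0.152% lower by the brightest probe set. For lists of this size a count of 0 is near those shares and is no result about the list. Glycolysis and hypoxia-inducible genes gave 0 of 29 in either direction with a median of 8.3e-05, within a range of −0.0935 to 0.0945. Cell cycle genes gave 0 of 31 (−0.122 to 0.132), the unfolded protein response 0 of 19, p53 targets 0 of 14, ribosome biogenesis 0 of 18, FOXO factors and their targets 0 of 16, actin nucleation and the cortical cytoskeleton 0 of 22 and RGS proteins 0 of 10. The SLAM family gave 0 of 10 with a median of −0.07 and 3 positive differences, the lowest SLAMF6 at −0.21 (adjusted p = 0.407). With 3 arrays per stimulus such counts do not show that these genes respond alike, since the smallest difference that passed anywhere was 0.267 in size.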

How the data were processed

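Total RNA of BL2 cells was hybridised to HG-U133 Plus 2.0 arrays, 3 per condition. The authors corrected the background, applied a variance stabilising normalisation to the probes and combined the probes of a set by median polish. The deposited values are log2, flatter than log2 near the floor. Software versions of these steps are not given in the sources used here. The number of arrays limits the precision.

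The deposited values were used as given. Of 54675 probe sets, the 62 AFFX controls were dropped, which left 54613 for the test. In the platform annotation 41091 of these had 1 gene, 1801 had several and 11721 had none here, and only those with 1 gene were named (19775 genes). Symbols were checked by Entrez identifier in the RefSeq gene table of GRCh38.p14, which held 41037, and 54 were kept as they were. Some genes are not reported here.

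CD40L was compared with LPS with limma 3.58.1 (lmFit, eBayes) in R 4.3.3 over all 9 arrays, which share 1 estimate of the spread, with condition and batch as terms, as the methods of the study model the batches (4 residual and 11.6 prior degrees of freedom). Tests were two-sided, and the Benjamini-Hochberg adjustment ran over all probe sets tested, with 0.05 as the threshold. An exact permutation of 3 against 3 arrays cannot go below p = 0.1, so that no such test is given. Batch numbers come from the labels, and deviations from the group means of the CD40L and LPS arrays correlated at 0.377, 0.183 and 0.466 in batches 1, 2 and 3. The script was tested on simulated data. There 99 of 100 probe sets shifted by 0.5 (log2) and 100 of 100 shifted by 1 were called. Of the unchanged probe sets 19 were called as well.

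The members, lists and naming rule of this comparison were chosen with earlier results of these data known. Named were the 15 genes with the largest difference in each direction that passed with the same sign in 3 batches (by the probe set of largest difference), up to 5 members of each list that passed (by the brightest probe set) with up to 2 further members of lists with fewer than 2, receptors and direct components of both stimuli, and genes that the study names for either stimulus. HLA-DRA, CD74, HLA-DMA, RELA, REL and NFKB1 fall outside this rule and were named after their values were seen, as were the promoters of TAP1, CXCL10, ICAM1 and FAS. Lists are described by counts and medians, with no test over a list. Alternatives were the fit without the batch or with it as a random effect (statmod 1.5.0), 6 arrays only, quantile normalization, median centring, dim probe sets left out, AFFX probe sets kept, eBayes with trend and robust, each batch and each array left out, and for lists the probe set of largest difference. Promoters are RefSeq sequences of GRCh38.p14, read 250 bases before the start. Figures were drawn with matplotlib 3.10.9.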

Additional observations from a re-analysis of the deposited data

How the results depend on the processing

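The batch numbers pair the arrays, and dropping that replicate block lowered the counts from 164 higher and 52 lower after CD40L to 64 and 9. As a random block the batch gave 81 and 16, at a consensus correlation of 0.0724. Only the 6 arrays of the stimuli gave 387 and 161. Quantile normalization gave 89 lower, while its higher count (183) and the counts after median centring (152 and 45), without dim probe sets (139 and 42), with AFFX probe sets (164 and 52) and with trend and robust eBayes (159 and 48) stayed within 1.5 times. Leaving out 1 batch gave 29 to 196 higher and 5 to 102 lower, and leaving out 1 CD40L or LPS array 56 to 97 and 7 to 33. Of 67 named probe sets that passed, 18 did so under every alternative run for them and 0 changed direction. Without batch 3, 46 missed the threshold, without batch 1, 34, and without the block 35, and the cause was not tested.

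Among values that had not passed, some changed sign when 1 batch or 1 array was left out. CD40 ran from −0.067 to 0.057, with 0.046 without batch 1 and 0.0032 without the LPS array of batch 1. LY96 ran from −0.053 to 0.105, with −0.0012 without batch 2, MYD88 from −0.063 to 0.13, with −0.035 without batch 2, and LY86 from −0.174 to 0.023. BNIP3L, a mitophagy receptor, ran from −0.233 to 0.026, and CDKN1B, a cell cycle inhibitor, from −0.0033 to 0.228. By the probe set of largest difference, MHC class I presentation had 4 members higher, B cell receptor signalling 4 higher and 1 lower, B cell markers 1 lower, the list of ID proteins, SMADs and BMPs 2 lower, mTOR and LKB1 partner genes 2 lower, and fibroblast markers 1 higher. Low signal limits IFIT1, 1 of the 2 probe sets of IFIT2, CXCL10, LY96 and CD14. It also limits MAP3K14 in the control and LPS arrays and IFIT3 in the control and CD40L arrays.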
